A study of Mus musculus with 19 samples.

Results

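Quadriceps of AR113Q mice on a high-fat diet was compared with quadriceps of wild-type mice on chow, to ask which transcripts ended near untreated wild type and which ended far from it. The comparison joins a difference of genotype with a difference of diet. Its members were taken by group label, 5 AR113Q-HFD samples and 5 CTR-NCD samples, which are 10 of the 19 samples in the series. All mice were male, of the congenic C57Bl6J strain and 180 days old at tissue collection. CTR-NCD mice were wild type and ate the purified normal chow diet (NCD). AR113Q-HFD mice were knock-in mice whose androgen receptor gene encodes an expanded polyglutamine tract, and they ate the high-fat diet (HFD) from 40 days of age. The study also arrayed 5 AR113Q-NCD and 4 CTR-HFD samples, which are used below for single side by side values and for a repeat on other arrays. The knock-in allele is carried by all tissues of the mouse, and the study does not say whether a sample was the muscle of a single mouse, so p-values here measure the spread between these samples.

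Spinal and bulbar muscular atrophy (SBMA) is caused by expansion of the polyglutamine tract of the androgen receptor, and it affects motor neurons and skeletal muscle of males. Skeletal muscle mixes fast fibers, which burn glycogen and glucose, with slow fibers, which burn fat in mitochondria. Loss of contact with the nerve turns on acetylcholine receptor and other junction genes along the whole fiber, and a diet rich in fat is known to lower the transcripts of fatty acid synthesis in several tissues.

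Total RNA was read on 1-colour Agilent arrays, with 1 sample on each array. Values are log2 signals minus the 75th percentile of the same array, so 0 stands for that percentile and a difference of 1 stands for a 2-fold difference. The scanner software called 70.4% to 80.1% of probes well above background on the CTR-NCD arrays and 73.0% to 79.3% on the AR113Q-HFD arrays. No probe was saturated, with 0 saturated probes on any array. A gene was read by its brightest tested probe, and 24737 genes had such a probe with a well above background call on 4 or more of the 19 arrays. The arrays lay on 5 slides, and the CTR-NCD array and the AR113Q-HFD array of the same replicate number shared a slide, so each difference could also be taken within slides. The number of arrays limits the precision.

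The tissue label held on the 10 arrays. Skeletal muscle alpha-actin (Acta1) read 9.18 to 9.42 on CTR-NCD arrays and 8.71 to 8.94 on AR113Q-HFD arrays, near the top of the scale in both groups. Titin (Ttn), the giant spring of the sarcomere, read 7.93 to 8.30 and 7.68 to 8.0. Of 6 skeletal muscle markers, 6 were tested, 5 were near untreated wild type and 1, the muscle creatine kinase gene Ckm, was lower with a log2 fold change of −0.80, a call lost after quantile normalization (−0.39), median centring, under the authors' values (−0.35) and under normexp.

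Of the transcripts tested in AR113Q-HFD muscle, 53.7% lay near untreated wild type as reported, while a small set lay far from it in either direction. In limma, an adjusted p under 0.05 together with at least 1.5 times the wild-type signal made a gene higher, and with at most 0.6 times that signal made it lower. It was called near when the 95% confidence interval of its fold change lay wholly between 0.6 and 1.5, and unresolved otherwise. Of 24737 genes, 710 were higher (2.87%), 636 were lower (2.57%), 13290 were near (53.7%) and 10101 were unresolved (40.8%). A further count, which overlaps the near and unresolved genes, was 3861 genes whose adjusted p was under 0.05 but whose fold lay between the thresholds. The median log2 fold change was −0.07 over all genes, 0.86 over the higher genes and −0.99 over the lower genes. Every AR113Q-HFD array lay above every CTR-NCD array for 607 of the higher genes (85.5%), and below for 485 of the lower genes (76.3%), beside 4291 of all genes (17.3%) that did not overlap in either direction. Within slides, 665 of the higher genes were higher on 5 of 5 slides and 600 of the lower genes were lower on 5 of 5. Both counts cover genes called on these same arrays, and no count over all genes is given beside them. The near count was 6774 under normexp and 10809 with a 99% confidence interval. The slide block in the 4-group fit gave 748 higher and 884 lower genes. Near calls went with bright signals, as near genes made up 6.47% of the dimmest 4947 genes and 84.4% of the brightest 4948.

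The balance of higher and lower genes depended on how arrays were scaled to each other. Higher genes made up 52.7% of the called genes as reported, 62.9% after quantile normalization, 66.6% after median centring, 63.7% on the authors' values and 61.7% after background correction by normexp. They made up 45.8% and 46.3% with a slide block in the fit of 4 groups and of 10 arrays, 47% without AR113Q-HFD array 1 and 49.7% without CTR-NCD array 2. The 75th percentile of the log2 signal was 9.86 to 10.18 on AR113Q-HFD arrays and 9.52 to 9.75 on CTR-NCD arrays, so 5 of 5 AR113Q-HFD arrays were above every CTR-NCD array before scaling. The 400 brightest genes had a median log2 fold change of −0.22 with 25 lower and 321 near genes. Normexp background correction moved the median of all genes to −0.63. For gene lists, its values are also given relative to that median. Over the 26 lists described below, these relative values ran from 0.09 for fatty acid synthesis to 1.16 for fatty acid oxidation. Lists below 0 under normexp, such as glycolysis (−0.13), thus read above 0 on this measure (0.50). A relative value above 0 is therefore not by itself a rise. Beyond these alternatives, what part the scaling had in the result was not tested.

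**Figure D1:**
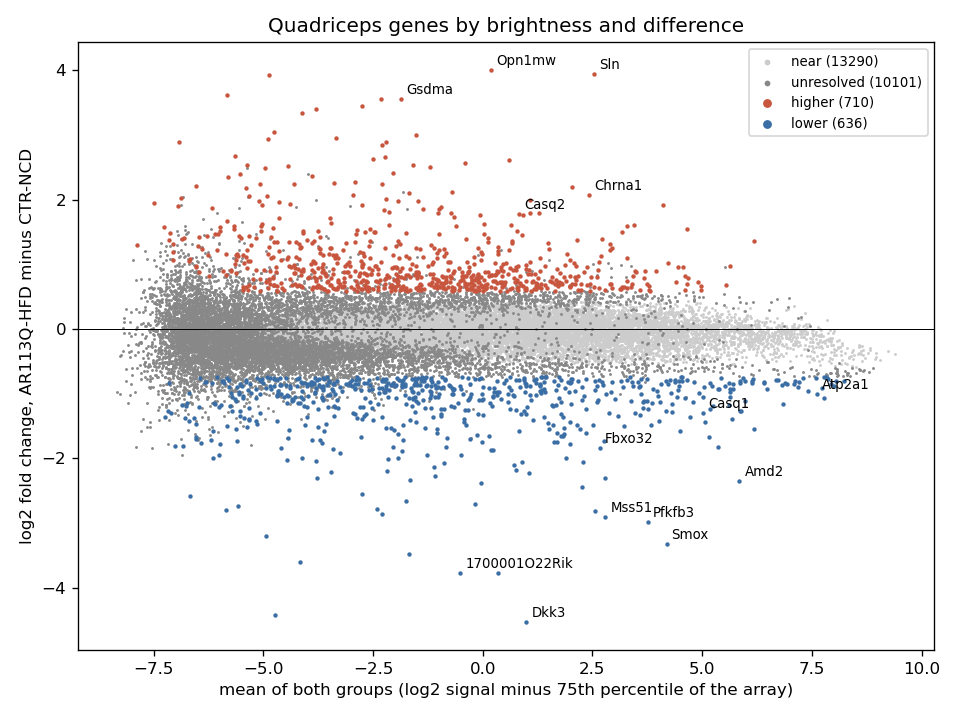
Each point is a gene, with the mean log2 signal of both groups relative to the 75th percentile of each array on the horizontal axis and the log2 fold change of AR113Q-HFD minus CTR-NCD on the vertical axis. The 710 higher genes lie above and the 636 lower genes below a band of 13290 near genes, and unresolved genes crowd the dim end on the left.

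The transcripts that rose most were a mix of a muscle calcium regulator and genes better known from other tissues. Sarcolipin (Sln, NM_025540, chr9:53701574-53701633 in mouse build mm9) is a small membrane protein that slows the calcium pump of muscle. Sln read 1.66, 1.12, 0.49, 0.58 and −1.04 on CTR-NCD arrays 1 to 5 and 4.99, 4.13, 4.34, 3.73 and 5.28 on AR113Q-HFD arrays 1 to 5. All 5 AR113Q-HFD arrays were above the CTR-NCD arrays, and CTR-NCD array 5 was the lowest. This was a log2 difference of 3.94 (standard error 0.63, with an adjusted p of 2.55e-04). Opn1mw, a cone opsin of the eye, read −2.08 to −1.43 on CTR-NCD arrays and 1.88 to 2.43 on AR113Q-HFD arrays, with a log2 fold change of 4.0 and an adjusted p of 0.00247. Gsdma, which encodes a pore-forming gasdermin, read −3.90 to −3.22 and −0.95 to 0.72, a log2 fold change of 3.56. The shisa-like gene Shisal1, listed under its older name 1810041L15Rik, had a log2 fold change of 3.55, and the zinc finger gene Zfp365 one of 3.01. Under normexp these were 1.62 for Gsdma, 1.35 for 1810041L15Rik and 1.53 for Zfp365 (2.25, 1.98 and 2.16 relative to all genes). A second probe of 1810041L15Rik had a log2 fold change of −0.12 and an adjusted p of 0.864, so its probes disagreed.

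Other large rises started from signals near background in wild type. Claudin 2 (Cldn2), a tight junction protein, was well above background on 5 of 5 AR113Q-HFD arrays and 0 of 5 CTR-NCD arrays. Its rise was at least 6.04-fold, a bound taken against the lowest signal that the scanner called well above background on each CTR-NCD array. A second Cldn2 probe was higher by 1.52 on the log2 scale (adjusted p = 0.0316), less than this bound. The chloride channel accessory gene Clca6 (now Clca4a) and the cornified envelope gene Scel were well above background on 2 of 5 CTR-NCD arrays each, and with dim signals raised to that limit they were at least 11-fold and 6.06-fold higher. Ect2l, well above background on 4 of 5 CTR-NCD arrays, was at least 10.4-fold higher, and Acox2, a peroxisomal oxidase of branched lipids, had a log2 fold change of 2.96. Relative to the median of all genes, normexp background correction put Cldn2 at −0.02, Scel at 0.28, Clca6 at 0.68, Acox2 at 1.02 and Ect2l at 1.16, and it ended these 5 calls.

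Transcripts far below wild type included secreted proteins, a polyamine enzyme and a glycolytic switch. Dkk3 (NM_015814, chr7:119259556-119259615), a secreted glycoprotein of the dickkopf family, read 3.58, 3.57, 3.16, 1.88 and 4.13 on CTR-NCD arrays and −1.43, −2.19, −1.60, 0.30 and −1.46 on AR113Q-HFD arrays. The groups did not overlap, and AR113Q-HFD array 4 came closest to wild type, on the slide where the CTR-NCD array was also the lowest of its group. Fitted by limma, the log2 change was −4.54 (standard error 0.56, with an adjusted p of 1.99e-05). The uncharacterised gene 1700001O22Rik read 1.02 to 2.02 and −2.84 to −2.08, a log2 fold change of −3.77 and an adjusted p of 4.09e-08. Its RIKEN neighbour in the ranking, 2310065F04Rik, had a log2 fold change of −3.78. Htra4, a serine protease gene, fell by 3.49 and Mss51, which encodes a mitochondrial protein of muscle, fell by 2.90 on the log2 scale. Tinag, Ppm1n and Themis3 reached background on part of the AR113Q-HFD arrays, and Smox and Pfkfb3, also among the 10 lowest, are described below. The basement membrane gene Tinag was at least 17-fold lower (well above background on 1 of 5 AR113Q-HFD arrays), the phosphatase gene Ppm1n at least 9.97-fold (3 of 5) and the Themis family gene Themis3 at least 8.88-fold (2 of 5). These bounds hold for the signals as reported, and normexp gave smaller log2 falls of −2.20, −1.94 and −1.85 for Tinag, Ppm1n and Themis3.

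Gene lists by function showed where AR113Q-HFD muscle ended. The 26 lists held 443 tested genes, of which 280 were near (63.2%), 29 were higher (6.55%), 33 were lower (7.45%) and 101 were unresolved. Of all genes, 53.7% were near, 2.87% higher and 2.57% lower, and of the brightest 4948 genes 84.4% were near. The counts of each list below stand beside these same shares. Among the 26 lists, oxidative phosphorylation had the highest share of near genes, denervation genes held the most higher genes, and slow fiber genes were almost all unresolved.

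**Figure D2:**
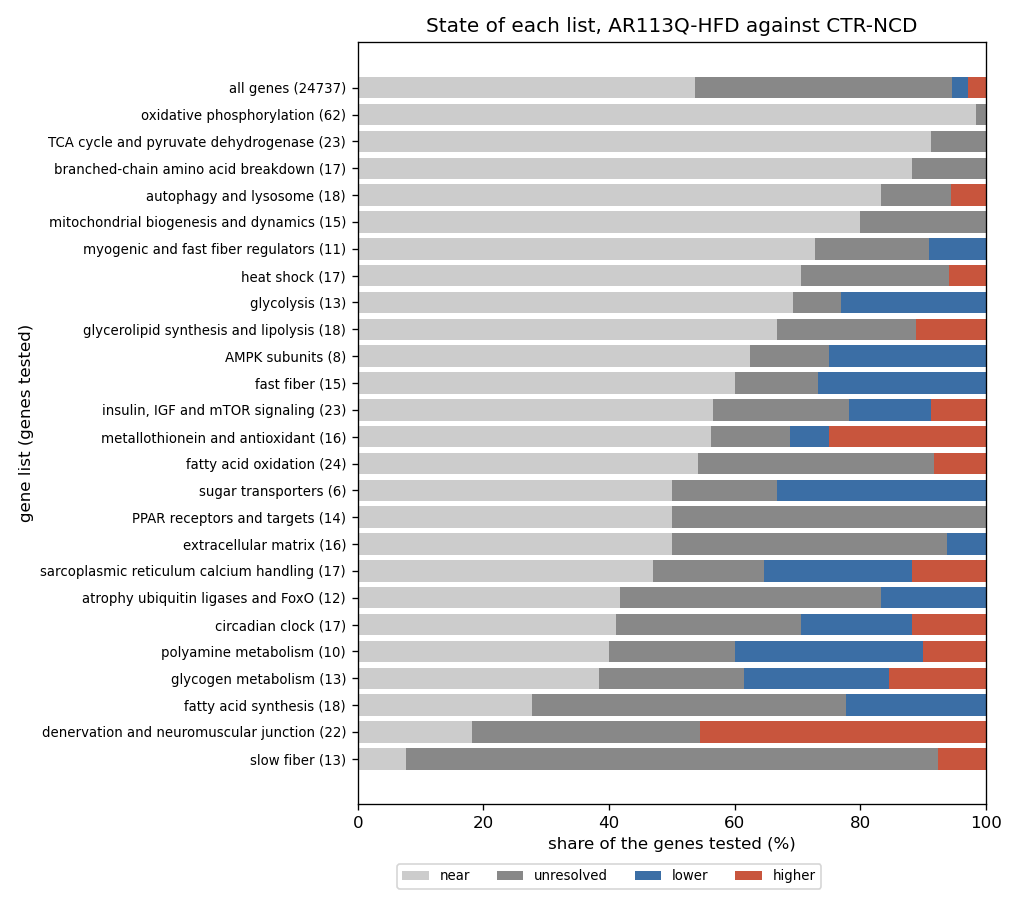
Stacked bars give the share of the tested genes of 25 of the 26 lists, in percent, that were near, unresolved, lower or higher in AR113Q-HFD against CTR-NCD, with all 24737 genes as the top bar. Near genes make up 98.4% of oxidative phosphorylation and 7.69% of slow fiber genes, and higher genes make up 45.5% of denervation genes, beside 2.87% of all genes.

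Denervation and neuromuscular junction genes were the list with the most higher members. The list also holds genes of the junction itself, so a higher member is not in itself a sign of lost nerve contact. Of 22 denervation and neuromuscular junction genes, 10 were higher, 4 were near and 8 were unresolved, and the list median was 0.56 beside −0.07 for all genes. This median was 0.22 with normexp background correction (0.85 relative to all genes) and 0.61 after quantile normalization. It was 0.42 with array weights and 0.35 without AR113Q-HFD array 5. Taken array by array, the mean of the list after centring each gene read 0.18, −0.05, 0.03, −0.04 and −0.12 on CTR-NCD arrays and 0.74, 0.42, 0.24, 0.46 and 0.85 on AR113Q-HFD arrays. The groups did not overlap, and AR113Q-HFD arrays 1 and 5 were the highest.

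The acetylcholine receptor subunits of the list did not move together. Chrna1 (NM_007389, chr2:73404112-73404171 in mm9) encodes the alpha subunit that binds acetylcholine. Chrna1 read 1.41, 1.40, 1.33, 1.37 and 1.42 on CTR-NCD arrays and 3.62, 3.25, 3.39, 3.15 and 3.85 on AR113Q-HFD arrays. Wild-type arrays were nearly identical, and the AR113Q-HFD arrays lay well above them. AR113Q-HFD minus CTR-NCD came to 2.07 on the log2 scale (standard error 0.15, with an adjusted p of 3.45e-07), with the rise on 5 of 5 slides, and a second probe gave 2.16. The beta subunit Chrnb1 rose by 0.83. Chrng, the gamma subunit of fetal and denervated muscle, read −5.38 to −4.67 and −5.43 to −4.31 and was unresolved with a log2 fold change of 0.13 and an adjusted p of 0.775. The delta subunit Chrnd (log2 fold change 0.49) and the adult epsilon subunit Chrne (−0.47) were unresolved too.

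Among the junction organisers, the receptor kinase Musk, which gathers acetylcholine receptors under the nerve ending, read −0.22, −0.59, −0.72, 0.08 and 0.11 on CTR-NCD arrays and 1.07, 1.02, 0.84, 0.42 and 1.36 on AR113Q-HFD arrays. The groups did not overlap, with AR113Q-HFD array 4 the nearest to wild type. Musk had a log2 fold change of 1.21 and an adjusted p of 1.35e-04. Its agrin-binding partner Lrp4 rose by 1.10 and the acetylcholine-cleaving enzyme Ache by 0.65. Rapsn, the scaffold of the receptor cluster, was near at 0.13, and the Musk adaptor Dok7 was unresolved at 0.53.

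Among regulators and adhesion genes of the denervation and junction list, Runx1, Gadd45a, Ncam1, Myog and Cdkn1a were higher. Hdac4, Hdac9 and Dach2 (unresolved at −0.25) were not. The transcription factor Runx1, which limits wasting of denervated fibers, read −3.52 to −3.05 on CTR-NCD arrays and −2.10 to −1.54 on AR113Q-HFD arrays, a log2 fold change of 1.55 and an adjusted p of 1.96e-06. Gadd45a, a stress gene that remodels myonuclei after denervation, read −0.19 to 0.26 and 1.38 to 1.77, a log2 fold change of 1.51. The adhesion molecule Ncam1 rose by 1.09, the myogenic factor Myog by 0.97 and the cell cycle inhibitor Cdkn1a by 0.84. Further probes were unresolved for Ncam1 (0.33 and 0.47) and for Cdkn1a (0.62 and −0.42). The repressors Hdac4 and Hdac9 were near, at −0.16 and 0.17. With normexp background correction 5 of the 10 calls were lost, those of Runx1, Ncam1, Myog, Lrp4 and Ache, with values of 0.69, 0.94, 0.86, 0.84 and 1.20 relative to all genes.

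Promoters of this list were read because its members rose together in part, and 16 of the 22 genes matched the RefSeq promoter table. The E-box CAGCTG, the same on both strands and bound by myogenic factors such as Myog, was searched in the 250 bases before each start. It was found in 5 of the 16 promoters (31.2%), in 2 of the 8 higher and 3 of the 8 others, beside 4271 of all 32851 promoters (13%). Shown are the subunit gene with the largest rise, the receptor kinase gene and the unresolved gamma subunit gene, so that promoters of both outcomes can be read, with CAGCTG in capitals. They are from RefSeq build GRCm38.p6, Chrna1 from the minus strand of chr2:73580339-73580588, Musk from the plus strand of chr4:58285712-58285961 and Chrng from the plus strand of chr1:87205561-87205810.
Chrna1: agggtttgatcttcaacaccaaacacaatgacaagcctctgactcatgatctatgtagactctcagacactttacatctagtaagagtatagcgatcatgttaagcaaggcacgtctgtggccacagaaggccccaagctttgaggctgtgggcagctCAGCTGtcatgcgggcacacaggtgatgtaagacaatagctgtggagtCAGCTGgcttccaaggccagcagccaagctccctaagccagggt
Musk: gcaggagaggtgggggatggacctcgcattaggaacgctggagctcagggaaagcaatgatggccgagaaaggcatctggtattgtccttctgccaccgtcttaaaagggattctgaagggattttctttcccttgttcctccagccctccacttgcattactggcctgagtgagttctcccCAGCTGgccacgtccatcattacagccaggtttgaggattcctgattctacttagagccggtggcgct
Chrng: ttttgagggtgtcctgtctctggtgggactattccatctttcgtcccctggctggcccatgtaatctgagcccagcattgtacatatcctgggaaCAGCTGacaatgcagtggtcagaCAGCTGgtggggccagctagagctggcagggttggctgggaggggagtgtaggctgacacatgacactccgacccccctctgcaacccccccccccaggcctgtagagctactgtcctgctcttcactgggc
The matches lie 92 and 44 bases before the start in Chrna1, 68 bases before it in Musk, and 155 and 132 bases before it in Chrng. Chrng held 2 matches without a called change, and a match describes the letters only.

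**Figure D3:**
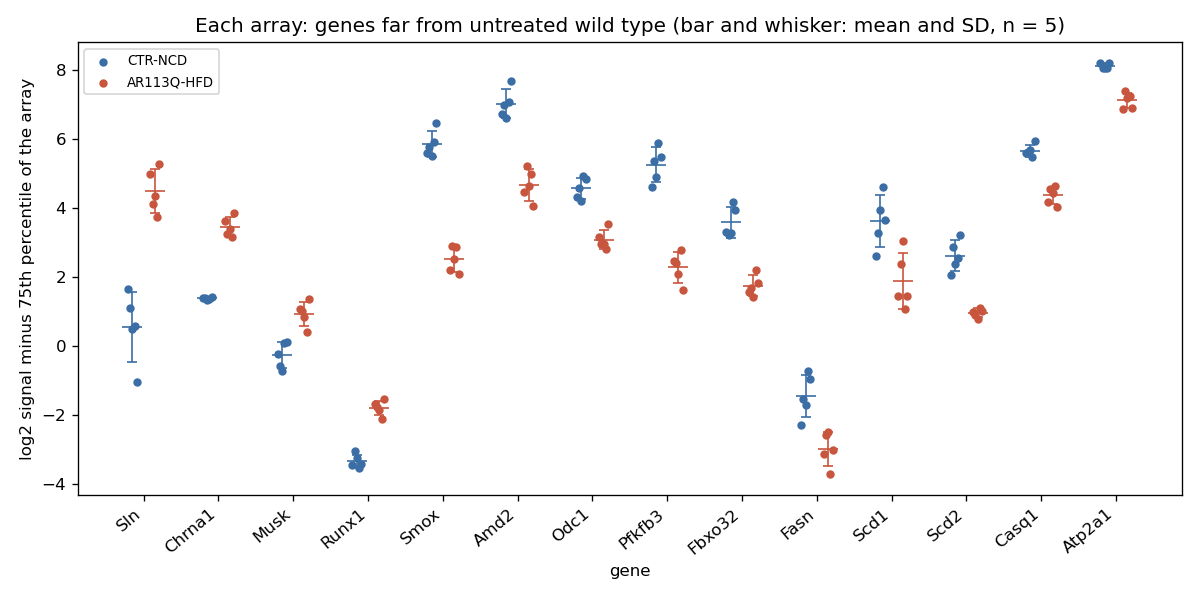
Points are single arrays of 14 genes in CTR-NCD and AR113Q-HFD quadriceps, with bar and whisker for mean and SD (n = 5), on the scale of log2 signal minus the 75th percentile of the array. Sln, Chrna1, Musk and Runx1 lie higher in AR113Q-HFD and the other 10 genes lower, and the groups overlap for Scd1 alone among these 14.

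The first enzymes of polyamine synthesis, Odc1 and Amd2, were lower than in wild type, and so was the oxidase that turns spermine back. Of 10 tested polyamine genes, 3 were lower, 1 was higher and 4 were near, with a list median of −0.28 (−0.08 with normexp background correction, 0.55 relative to all genes). Spermine oxidase (Smox, NM_001177833, chr2:131350842-131350901) read 5.59, 5.78, 5.50, 5.93 and 6.47 on CTR-NCD arrays and 2.22, 2.91, 2.52, 2.87 and 2.10 on AR113Q-HFD arrays. The groups lay far apart, and array 5 was the highest of wild type and the lowest of AR113Q-HFD. This was a log2 difference of −3.33 (standard error 0.19, with an adjusted p of 2.17e-08), and a second probe gave −3.62. Amd2, whose enzyme supplies the building block for spermidine and spermine, fell by 2.36 from 6.62 to 7.69 on CTR-NCD arrays to 4.05 to 5.22. Ornithine decarboxylase (Odc1), the entry enzyme, fell by 1.49, and its 3 other probes had log2 fold changes of −1.82 to −1.49. Sat1, which acetylates polyamines for export, rose by 0.62, a call lost without AR113Q-HFD array 5 and with normexp background correction. The spermidine synthase gene Srm was near at −0.42. The spermine synthase gene Sms was unresolved at −0.66, with 2 further probes near, and the antizyme gene Oaz1, which restrains Odc1, was near at 0.03.

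No gene on the list of atrophy ubiquitin ligases and FoxO genes was called higher by its brightest probe in AR113Q-HFD muscle. Of 12 atrophy and FoxO genes, limma called 2 lower and 0 higher (0 of them past the higher fold at an unadjusted p under 0.05), 5 were near and 5 were unresolved. Their median was −0.04, with 0.05 after quantile normalization and after median centring and 0.02 without AR113Q-HFD array 5. It was −0.07 on the authors' values, −0.08 without AR113Q-HFD array 1 and −0.11 under normexp (0.52 relative to all genes). Atrogin-1 (Fbxo32, NM_026346, chr15:58011752-58011811) read 3.30, 3.23, 3.29, 4.19 and 3.95 on CTR-NCD arrays and 1.57, 1.69, 1.42, 2.22 and 1.84 on AR113Q-HFD arrays. The groups did not overlap, and the array on slide 4 was the highest of each group. Fitted by limma, the log2 change was −1.84 (adjusted p = 4.54e-06). Fbxo40, a ligase for the insulin receptor substrate, fell by 0.80, a call lost after median centring, with normexp background correction and with the authors' values. MuRF1 (Trim63) had a log2 fold change of −0.61 and an adjusted p of 0.00313, a change that fell short of the fold threshold and left it unresolved. The ligase genes Fbxo21 (0.31) and Fbxo30 (0.13) were not called. Foxo1, which drives atrophy genes when active, was unresolved at 0.47. Foxo3 was near at −0.04, while a second Foxo3 probe was higher at 1.32 (adjusted p = 1.49e-04).

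Of 18 autophagy and lysosome genes, 15 were near by their brightest probe (83.3%, beside 84.4% of the brightest 4948 genes), among them the scaffold Sqstm1 (−0.01), Map1lc3b (0.16) and the master regulator Tfeb (−0.14). The autophagosome gene Gabarap was near at −0.11, while a further probe of it was lower at −0.75 (adjusted p = 2.91e-05). Map1lc3a, which coats the autophagosome, was higher at 0.60, a call lost with array weights and without CTR-NCD array 4 or AR113Q-HFD array 5. Of 23 genes of insulin, IGF and mTOR signaling, 13 were near (56.5%) and 5 were called, with near members including Mtor (−0.05) and Akt2 (0.02). A second Mtor probe was unresolved at 0.48 (adjusted p = 4.06e-04), and the mTOR activator Rheb was unresolved at −0.47 with 1 of 2 further probes lower at −0.81. The docking proteins of the insulin receptor were lower, Irs2 by 0.89 and Irs1 by 0.79, and so was the growth factor Igf2 by 0.86. Irs2 read 3.60 to 4.15 on CTR-NCD arrays and 2.43 to 3.62 on AR113Q-HFD arrays, where array 2 reached into the wild-type range. The translation repressor Eif4ebp1 rose by 0.70, and Sesn3, which restrains mTOR, rose by 0.87. Of 8 genes for AMPK subunits and an upstream kinase, 2 were lower, the muscle gamma subunit Prkag3 by 1.24 and the beta subunit Prkab2 by 0.81. Calls of Irs1, Igf2 and Prkab2 were lost with the authors' values (−0.71, −0.72 and −0.72), those of Irs1 and Prkab2 after median centring (−0.71 and −0.72), that of Prkab2 after quantile normalization (−0.71) and with array weights, those of Irs1, Irs2, Sesn3 and Prkab2 with normexp background correction. Under normexp Igf2 was at −1.25 (−0.62 relative to all genes) without passing the test. Prkab2 was also lost without CTR-NCD array 5, and Irs1 without AR113Q-HFD array 3.

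Of 13 glycolysis genes, 3 were lower, Pfkfb3, Hk2 and Pgam2, and 9 were near by their brightest probe, and all 13 had log2 fold changes below 0 as reported. Their median was −0.49, −0.10 after quantile normalization, −0.26 on the authors' values and −0.13 under normexp (0.50 relative to all genes). Pfkfb3 (NM_001177753, chr2:11393453-11393512), whose enzyme makes the strongest activator of phosphofructokinase, read 4.62, 5.38, 4.91, 5.90 and 5.48 on CTR-NCD arrays and 2.48, 2.42, 2.08, 2.78 and 1.64 on AR113Q-HFD arrays. No array of either group came within 1 unit of the other group. AR113Q-HFD minus CTR-NCD came to −2.98 on the log2 scale (standard error 0.29, with an adjusted p of 1.93e-06), and a second probe gave −3.30. Hexokinase 2 (Hk2), which traps glucose in the fiber, fell by 0.82, and phosphoglycerate mutase (Pgam2) fell by 0.88. Phosphofructokinase itself (Pfkm) had −0.73 (adjusted p = 2.79e-06), short of the fold threshold, and Gapdh was near at −0.40. Probes disagreed for Gapdh, where 3 of 6 further probes were lower (−0.82 to −0.74), and for lactate dehydrogenase Ldha, which was near at −0.46 while 2 further probes were lower (−1.04 and −0.97). Hk2 lost its call after median centring, with normexp background correction and without AR113Q-HFD array 3, and Pgam2 lost it after quantile normalization (−0.46), under the authors' values (−0.50) and under normexp.

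Of 13 glycogen genes, 3 were lower (Phka1, Pgm2 and Ppp1r3c), 2 were higher and 5 were near, with a median of −0.50 (−0.35 after quantile normalization, −0.14 with normexp background correction, 0.50 relative to all genes). The phosphorylase kinase subunit Phka1 read 6.08 to 6.69 on CTR-NCD arrays and 4.82 to 5.18 on AR113Q-HFD arrays, a log2 fold change of −1.40 and an adjusted p of 4.03e-06. The subunit Phkb was near at −0.38, with a further probe lower at −0.78, and Phkg1 was unresolved at −0.69. Phosphoglucomutase (listed as Pgm2) fell by 1.06 and the glycogen-targeting subunit Ppp1r3c by 0.95. Glycogen phosphorylase (Pygm) was near at −0.53, while the branching enzyme Gbe1 rose by 0.65 and the targeting subunit Ppp1r3d by 0.74. Normexp ended the calls of Ppp1r3c (−0.61) and Ppp1r3d (0.32), and under it Gbe1 had a larger value of 0.93 without passing the test. Of 6 sugar transporters, the glucose carrier Slc2a3 fell by 1.34 and the insulin-responsive carrier Slc2a4 by 0.80. The other 4 were not called, with the fructose carrier Slc2a5 unresolved at 1.23 (adjusted p = 0.144), and the median of the 6 was −0.09 with 3 above 0 and 3 below. Under normexp the direction of Slc2a5 turned, to −1.03, and the list median was −0.25 (0.38 relative to all genes). With only probes well above background on all 19 arrays, the list median was −0.22. Slc2a3 read 0.40 to 1.19 on CTR-NCD arrays and −1.79 to 0.01 on AR113Q-HFD arrays, with AR113Q-HFD arrays 1 and 5 the lowest, and its call was lost with the slide block in the fit of the 10 arrays. Slc2a4 and Pgm2 lost their calls after quantile normalization (−0.66 and −0.73), under the authors' values and under normexp, and Slc2a4 also after median centring (−0.72). The call of Gbe1 was lost without CTR-NCD array 4 or 5 or AR113Q-HFD array 1, 2 or 5, and that of Slc2a4 without AR113Q-HFD array 3.

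Of 15 fast fiber genes, 9 were near by their brightest probe (60%, beside 53.7% of all genes and 84.4% of the brightest 4948), and the 4 lower genes were Casq1, Atp2a1, Actn3 and Prkag3. The list had a median of −0.45 that became 0.00 after quantile normalization and −0.06 with the authors' values (−0.09 with normexp background correction, 0.54 relative to all genes). The fast myosin Myh4 read 8.46 to 8.65 on CTR-NCD arrays and 8.03 to 8.27 on AR113Q-HFD arrays, near at −0.43 as reported and 0.06 after quantile normalization. Fast troponin I (Tnni2) was near at −0.35 and the calcium buffer parvalbumin (Pvalb) at −0.47. Further probes were lower for Pvalb (−0.95), the myosin light chain Myl1 (−1.23, brightest probe near at −0.45) and tropomyosin Tpm1 (−1.21, brightest probe near at −0.43). Calsequestrin 1 (Casq1), the main calcium store protein of fast fibers, read 5.59, 5.63, 5.70, 5.47 and 5.94 on CTR-NCD arrays and 4.18, 4.56, 4.43, 4.64 and 4.04 on AR113Q-HFD arrays. The groups were separate on every slide. This was a log2 difference of −1.30 (adjusted p = 3.23e-06), and it was −1.18 after quantile normalization. Alpha-actinin 3 (Actn3) of the fast Z-disc fell by 0.80, a call lost after quantile normalization (−0.35) and median centring (−0.72), under the authors' values (−0.36) and under normexp (−0.43).

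The calcium handling genes of the sarcoplasmic reticulum moved both ways. Of 17 genes, 2 were higher, Sln and Casq2, 4 were lower and 8 were near, with a median of −0.24 (−0.09 after quantile normalization). The fast calcium pump Atp2a1 (NM_007504, chr7:133591703-133591762) read 8.05 to 8.21 on CTR-NCD arrays and 6.88 to 7.39 on AR113Q-HFD arrays, a log2 fold change of −1.0 and an adjusted p of 1.33e-06. Its call was lost after quantile normalization (−0.69), under the authors' values (−0.71) and under normexp. The junctophilins, which tie the reticulum to the surface membrane, were lower, Jph2 by 1.41 and Jph1 by 0.78, the latter call being lost after median centring, under normexp and without CTR-NCD array 5 or AR113Q-HFD array 1. Jph2 read 1.45 to 2.12 and 0.12 to 0.75, with no overlap. The release channel Ryr1 was unresolved at −0.60, and the voltage sensor Cacna1s was near at −0.45.

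Slow fiber genes could not be placed, because both groups held muscles with very different slow fiber signals. Of 13 slow fiber genes, 1 was higher, 1 was near and 11 were unresolved, with a median of −0.19 that ran from −0.62 to 0.20 as single arrays were left out and was 0.05 under normexp (0.68 relative to all genes). Slow myosin Myh7 (NM_080728, chr14:55589581-55589640) read 3.41, 6.16, 4.88, 0.88 and 3.21 on CTR-NCD arrays and 5.33, 0.35, −0.08, 4.87 and 5.77 on AR113Q-HFD arrays. AR113Q-HFD arrays 2 and 3 and CTR-NCD array 4 were low, and the groups overlapped over nearly their whole range. Fitted by limma, the log2 change was −0.46 (standard error 1.51, with an adjusted p of 0.876). Slow troponin I (Tnni1) read −1.83 to 2.62 and −2.01 to 2.19. For 11 of the 13 genes AR113Q-HFD arrays 2 and 3 were the lowest of their group, and for 13 of 13 CTR-NCD arrays 4 and 5 were. The median SD of these genes was 1.45 in CTR-NCD and 0.78 in AR113Q-HFD, beside 0.22 and 0.21 for all genes. In whole muscle, fewer slow fibers and less of these transcripts per fiber cannot be told apart.

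Casq2, the calsequestrin of slow fibers and heart, was the higher slow fiber gene. Casq2 read 0.55, 0.55, 0.22, −0.83 and −0.77 on CTR-NCD arrays and 2.05, 1.92, 1.09, 1.18 and 2.34 on AR113Q-HFD arrays. It was higher on AR113Q-HFD arrays 2 and 3, where Myh7 was low, than on any CTR-NCD array. Casq2 rose by 1.77 on the log2 scale (adjusted p = 0.00747), and the call held under all 21 alternatives. Myh2, the myosin of intermediate fibers, read 5.47 to 7.78 and 5.83 to 7.79 and was unresolved at 0.05. The slow tropomyosin Tpm3 was near at −0.12. Beside these values, AR113Q-NCD against CTR-NCD had a slow fiber median of 2.0, and AR113Q-HFD against AR113Q-NCD one of −1.68. In the latter limma called 0 of 13 genes, and 6 had an unadjusted p under 0.05.

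**Figure D4:**
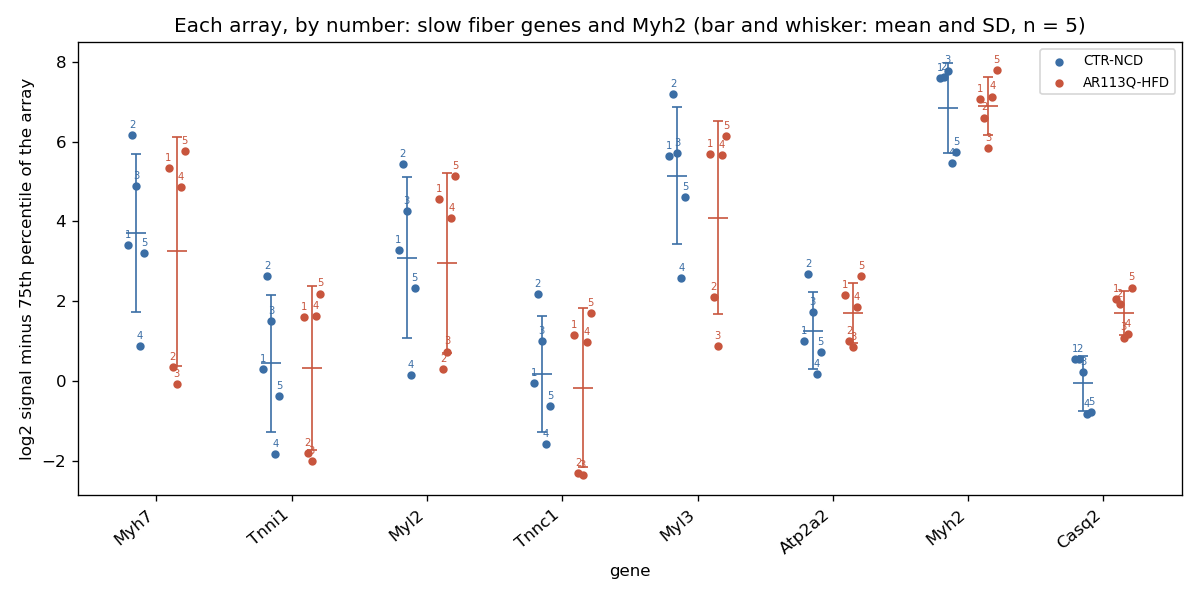
Points are single arrays, marked by their number, for 7 slow fiber genes and Myh2 in CTR-NCD and AR113Q-HFD quadriceps, with bar and whisker for mean and SD (n = 5), on the scale of log2 signal minus the 75th percentile of the array. AR113Q-HFD arrays 2 and 3 and CTR-NCD arrays 4 and 5 are low for the slow filament genes, with Myh7 from −0.08 to 6.16, and only Casq2 of these 8 separates the groups.

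Fasn, Scd1, Scd2 and Srebf1 of the fatty acid synthesis list were lower than in wild type. Of 18 genes, 4 were lower, 5 were near and 9 were unresolved, and the median was −0.48 (−0.40 after quantile normalization, −0.54 with normexp background correction, 0.09 relative to all genes). Fatty acid synthase (Fasn, NM_007988, chr11:120667666-120667725) read −2.29, −1.53, −1.72, −0.73 and −0.96 on CTR-NCD arrays and −3.13, −2.57, −2.49, −3.71 and −3.01 on AR113Q-HFD arrays. The groups did not overlap, and array 1 of CTR-NCD was the closest to the AR113Q-HFD arrays. This was a log2 difference of −1.54 (standard error 0.38, with an adjusted p of 0.00780). Srebf1, the transcription factor of this pathway, read −1.31 to −0.58 and −2.73 to −2.54, a log2 fold change of −1.71 and an adjusted p of 1.86e-07. The desaturase Scd2 fell by 1.66 and read 0.79 to 1.12 on AR113Q-HFD arrays. Scd1 fell by 1.73 with overlapping groups, from 2.61 to 4.62 on CTR-NCD arrays and from 1.09 to 3.06 on AR113Q-HFD arrays. Its call was lost with normexp background correction and without CTR-NCD array 4 or AR113Q-HFD array 4 or 5. The elongase Elovl6 was unresolved at −0.89 (adjusted p = 0.103), the carboxylase Acaca at −0.60 and citrate lyase (Acly) at −0.34. Of 3 further Acaca probes 1 was lower at −0.99, and the desaturase Scd3 was near at −0.38 with 1 of 2 further probes lower at −1.48. Mlxipl, the sugar-sensing factor of the pathway, was near at −0.11. White adipocyte markers, described below, had their highest mean on CTR-NCD array 4 (1.09) and their lowest on AR113Q-HFD array 4 (−1.22). Fasn and Scd1 were highest and lowest on the same arrays.

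Fasn was called on opposite sides of wild type in AR113Q muscle on the 2 diets. Fasn had a log2 fold change of 1.48 in AR113Q-NCD against CTR-NCD (adjusted p = 0.0127), and the direct test of AR113Q-HFD against AR113Q-NCD gave −3.01 (adjusted p = 0.00977). Elovl6 had 1.99 in AR113Q-NCD against CTR-NCD (adjusted p = 0.00119) and −2.88 between the AR113Q groups. Srebf1 and Scd2, in contrast, were low in AR113Q-NCD too, with −1.38 and −1.04 against CTR-NCD. Between AR113Q-HFD and AR113Q-NCD, limma called 5 genes lower (0.0202%) and 0 higher, with 1643 genes at an unadjusted p under 0.05. The 5 were Fasn, Elovl6, Acaca (−1.41), Acly (−1.35) and an unnamed transcript, NAP092820-001 (−2.83). Between CTR-HFD and CTR-NCD limma called 0 genes in either direction, with 2069 genes at an unadjusted p under 0.05. For the interaction of genotype and diet, limma called 0 genes at an adjusted p under 0.05, with 1143 genes at an unadjusted p under 0.05 and a smallest adjusted p of 0.82.

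Fat storage and fat burning lists each held 2 called genes, which were higher. Of 18 glycerolipid genes, 2 were higher and 12 near, with a median of 0.00 (0.19 with normexp background correction, 0.82 relative to all genes). G0s2, which inhibits the triglyceride lipase, rose by 0.88, and Agpat2, an acyltransferase of triglyceride synthesis, rose by 0.69, a call lost after median centring, with the authors' values and without CTR-NCD array 1, 2, 3 or 5 or AR113Q-HFD array 1, 3 or 5. The lipid droplet coat gene Plin2 was near at 0.03 and its muscle relative Plin5 was unresolved at 0.98. Of 24 fatty acid oxidation genes, 2 were higher and 13 near, and 22 had log2 fold changes above 0. Their median of 0.24 was 0.15 to 0.53 across all alternatives, with 0.53 under normexp (1.16 relative to all genes) and 0.15 without CTR-NCD array 4 or AR113Q-HFD array 5. The list mean after centring each gene overlapped between groups, at −0.23 to 0.20 on CTR-NCD arrays and −0.02 to 0.50 on AR113Q-HFD arrays. CTR-NCD arrays 4 and 5 and AR113Q-HFD array 3 were the lowest of their groups. These arrays were also low in the slow fiber mean (−1.62, −0.81 and −1.70). Carnitine palmitoyltransferase 1a (Cpt1a), which admits fatty acids to mitochondria, read 0.00 to 0.57 and 0.82 to 1.13, a log2 fold change of 0.64 and an adjusted p of 3.19e-04, with the call lost without CTR-NCD array 5. The muscle form Cpt1b was near at 0.25. The dehydrogenase Acadl rose by 0.61, a call lost under 11 of 21 alternatives, among them those without CTR-NCD array 2, 4 or 5 or AR113Q-HFD array 1, 2, 4 or 5. Of 14 PPAR receptors and targets, limma called 0 (5 had an unadjusted p under 0.05), 7 were near, including Pdk4 (−0.20) and Ucp3 (−0.28), and Ppara itself was unresolved at 0.49. Of the 14, 9 were above 0 with a median of 0.24, which was 0.02 under normexp (0.65 relative to all genes). The thioesterase Acot1 (1.11) and the lipase inhibitor Angptl4 (0.80, adjusted p = 0.0552) were unresolved, and Angptl4 passed the test after quantile normalization (0.85).

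Of 62 oxidative phosphorylation genes, 61 were near and 1, Ndufa8, was unresolved, beside 84.4% near among the brightest 4948 genes. As reported, 61 of 62 were below 0, beside 14499 of all 24737 genes, and 32 had an unadjusted p under 0.05. Their median of −0.19 became −0.01 after quantile normalization and 0.16 with normexp background correction (0.79 relative to all genes). The complex I subunit Ndufv1 was at −0.04 and Cox7c of complex IV at 0.01. Of 23 genes of the TCA cycle and pyruvate dehydrogenase, 21 were near (91.3%), with citrate synthase (Cs) at −0.12 and succinate dehydrogenase Sdhc at 0.00, and the list median of −0.12 became 0.04 after quantile normalization, 0.01 with the authors' values and 0.22 under normexp (0.85 relative to all genes), and was −0.06 without AR113Q-HFD array 3. Of 15 genes of mitochondrial biogenesis and dynamics, 12 were near (80%, beside 53.7% of all genes and 84.4% of the brightest 4948). Among the near genes were the coactivator Ppargc1a (−0.07), the mitochondrial transcription factor Tfam (−0.06) and the fusion gene Mfn2 (−0.11). Ppargc1a read 2.40 to 3.68 on CTR-NCD arrays and 2.12 to 3.08 on AR113Q-HFD arrays, and its near call was lost with normexp background correction and without CTR-NCD array 1 or 3 or AR113Q-HFD array 3.

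Clock genes of AR113Q-HFD muscle were shifted in opposite directions. Of 17 tested clock genes, 2 were higher (11.8%), 3 were lower (17.6%) and 7 were near (41.2%). Of all genes, these shares were 2.87%, 2.57% and 53.7%. The repressor Nr1d1 (REV-ERB alpha) read 2.18, 2.62, 2.74, 2.63 and 2.38 on CTR-NCD arrays and 1.11, 1.21, 1.22, 1.17 and 1.03 on AR113Q-HFD arrays. Each group was tight and the groups were apart. Nr1d1 had a log2 fold change of −1.36 and an adjusted p of 3.74e-04. The activator Arntl (BMAL1) fell by 1.04, from 0.68 to 1.47 on CTR-NCD arrays to 0.01 to 0.32. The repressors Per2 and Cry2 rose by 0.98 and 0.64, and both calls were lost without CTR-NCD array 3. Under normexp Per2 was at 0.36 (0.99 relative to all genes), short of the fold threshold. A further Cry2 probe was near at 0.20. Bhlhe41 fell by 0.86, a call lost with the authors' values, and Clock was near at 0.02. On the other 9 arrays, AR113Q-NCD against CTR-HFD, Per2 was at 0.03, Nr1d1 at −0.19 and Arntl at −0.12, with adjusted p of at least 0.658. The time of day of tissue collection is not in the labels, and its part in the result was not tested.

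Antioxidant genes moved in both directions. Of 16 genes, 4 were higher (25%), 1 was lower (6.25%) and 9 were near (56.2%), beside 2.87%, 2.57% and 53.7% of all genes. Catalase (Cat), which clears hydrogen peroxide in peroxisomes, read 0.70, 0.72, 0.88, 0.80 and 0.67 on CTR-NCD arrays and 2.02, 1.62, 1.55, 1.68 and 2.34 on AR113Q-HFD arrays. AR113Q-HFD arrays 1 and 5 were the highest, and no array overlapped. Fitted by limma, the log2 change was 1.09 (adjusted p = 3.44e-05), and a second probe gave 1.0. The quinone reductase Nqo1 rose by 0.72, the metal-binding protein gene Mt2 by 0.73 and Nfe2l2, the transcription factor that drives many of these genes, by 0.61. The secreted peroxidase Gpx3 fell by 1.14, from 4.23 to 4.57 on CTR-NCD arrays to 3.11 to 3.58. Superoxide dismutases Sod1 (−0.27) and Sod2 (−0.05) were near. The call of Mt2 was lost under 10 of 21 alternatives, among them those without CTR-NCD array 3, 4 or 5 or AR113Q-HFD array 1, 2 or 5, and that of Nfe2l2 without CTR-NCD array 3 or AR113Q-HFD array 5.

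The steroid receptor coactivators Ncoa1 (0.12) and Ncoa2 (0.10) were near. The corepressor Ncor1 was near at −0.21, while 1 of its 3 further probes was higher at 0.92 (adjusted p = 1.35e-06). The cochaperone Fkbp5, a steroid receptor target, was unresolved at 0.54. Of 11 myogenic and fast fiber regulators, 8 were near, and Sox6, which represses slow fiber genes, was lower by 0.92 (adjusted p = 4.35e-05). The fast fiber factor Eya1 was near at −0.43.

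Markers of other cell types in whole muscle were read as well. Over 10 other cell types, 45 markers were tested, of which limma called 0 higher and 0 lower (7 had an unadjusted p under 0.05), 24 were near and 21 were unresolved. Of 6 macrophage markers, 6 were near, where the growth factor receptor Csf1r had the brightest probe, and von Willebrand factor (Vwf) had the brightest of the 5 endothelial probes. All 5 endothelial markers were near by their brightest probe and all 5 were below 0, with Pecam1 at −0.46, and a second probe of the growth factor receptor Kdr was lower at −0.76 (adjusted p = 0.00812). Their mean after centring was −0.10 to 0.06 on CTR-NCD arrays and −0.39 to −0.20 on AR113Q-HFD arrays, without overlap. White adipocyte markers varied together from sample to sample, so their mean level after centring each gene was −0.88, −0.50, 0.22, 1.09 and 0.07 on CTR-NCD arrays and −0.47, −0.19, 0.83, −1.22 and −0.31 on AR113Q-HFD arrays. Adiponectin (Adipoq) was highest on CTR-NCD array 4 at 3.60 and lowest on AR113Q-HFD array 4 at 0.95, and Fabp4 had the brightest of these 7 probes. Brightness of different probes does not rank transcripts by abundance. Scd1 and Fasn were likewise highest on CTR-NCD array 4 (4.62 and −0.73) and lowest on AR113Q-HFD array 4 (1.09 and −3.71). The mean of the fatty acid synthesis list was −0.32, −0.03, −0.08, 0.21 and 0.22 on CTR-NCD arrays and −0.53, −0.60, −0.43, −0.75 and −0.58 on AR113Q-HFD arrays, lowest on the same array. All 5 tested brown fat markers were unresolved, with Cidea at 1.14 and the other 4 below 0. Those were Otop1 (−0.93), Ucp1 (−0.79), Slc27a2 (−0.62) and Dio2 (−0.34). Ucp1 was well above background on 2 of 5 arrays in each group. The part of these cells in the result was not tested.

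The calls were then read on arrays that took no part in them, AR113Q-NCD against CTR-HFD, where genotype differs the same way and diet the opposite way. There, 568 genes were higher (2.3%) and 534 were lower (2.16%). Of the 710 genes higher in AR113Q-HFD, 324 were higher there too (45.6% of this list and 57% of the other), and of the 636 lower genes 306 were lower there (48.1% and 57.3%). Medians on the other arrays were 0.59 over the higher and −0.77 over the lower genes. Signs were shared by 687 higher genes (96.8%) and 613 lower genes (96.4%), where 10004 of all genes (40.4%) were above 0 and 14733 below. The spread estimate of limma is shared by all 19 arrays, so the calls are not fully separate.

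Named genes show which changes recurred under the opposite pairing of diets. Sln was at 3.19, Chrna1 at 1.42, Smox at −3.04, Pfkfb3 at −3.02, Dkk3 at −3.59 and Fbxo32 at −1.63 on the other arrays, with adjusted p of at most 0.00347. Only Fasn and Scd1 were called in opposite directions, at 2.98 (adjusted p = 1.33e-04) and 2.21 (adjusted p = 0.00887). Opn1mw was at 1.84 (adjusted p = 0.184), Scd2 at 0.03, Ncam1 at 0.24 and Cat at 0.30, none of which was called there. Among the 13290 near genes, 11533 (86.8%) were near there as well, beside 53.4% of all genes. A near call depends on the width of the interval, which both comparisons take from the same spread estimate of a probe. Part of this overlap is therefore built in, and it does not measure recurrence. Slow fiber genes had a median of 2.22 there, with 7 of 13 higher, beside −0.19 and 1 of 13 in AR113Q-HFD against CTR-NCD.

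**Figure D5:**
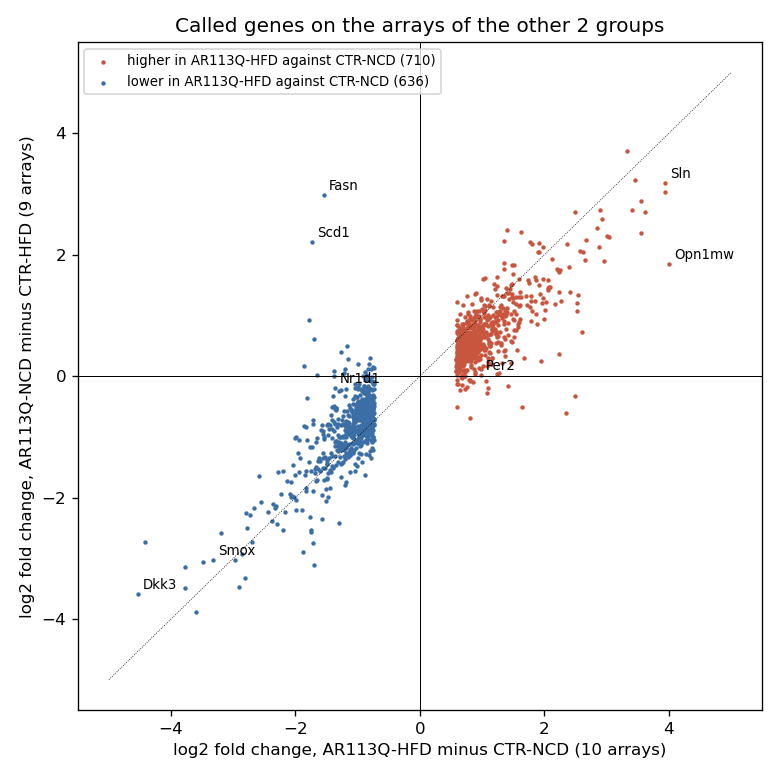
Each point is a gene called higher or lower in AR113Q-HFD against CTR-NCD, with that log2 fold change (10 arrays) on the horizontal axis and the log2 fold change of AR113Q-NCD against CTR-HFD (9 arrays) on the vertical axis. Signs are shared by 687 of 710 higher and 613 of 636 lower genes, and Fasn and Scd1 stand apart at 2.98 and 2.21.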

How the data were processed

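The authors deposited scanner output of Agilent Feature Extraction 10.7.3.1 and a series matrix of normalized values. Intensity here is the processed signal of that output, and the values of the authors' series matrix are on a log2 scale by their range. Spots marked as uneven or as outliers were left out, spots of the same probe were averaged, each array was set to its 75th percentile, and limma was fitted to 4 groups on 19 arrays with Benjamini-Hochberg adjustment over 32021 probes. A gene took its brightest tested probe. Members and gene lists were chosen with earlier results of these data known. Named genes are the 10 highest and 10 lowest called genes, the 5 genes with the smallest p for the diet within AR113Q, members of the 26 lists and genes that the study names; some genes of this rule are not reported here. Other settings tried were scaling by quantiles or by the median, background correction with normexp, the authors' values, other filters, slide blocks, array weights, trended eBayes and leaving out each array. Current symbols came from RefSeq tables for 17499 genes by accession, 1349 by symbol and 150 by an older symbol, and 5739 stayed as listed.

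The authors' series matrix held 25944 probes with array medians of 7.59 to 7.65, and its values had a correlation with the scanner values of at least 0.979 on each array. How its values were normalized beyond these medians is unknown, and their log2 scale was read from their range. Calls on them used the same thresholds and depend on that scale. Tools were R 4.3.3, limma 3.58.1, the data.table package at 1.17.8, Python 3.11.15 and matplotlib 3.10.9.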

Additional observations from a re-analysis of the deposited data

Results flagged for a closer look

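In 178 groups of 5 arrays, the highest or lowest array was set against the other 4 by its gap relative to the whole range, with 0.71 as the critical value. Chance marks about 1 in 20 such groups, and 3 groups (1.69%) were marked. The mean of the list that holds the steroid receptor cofactors was 0.15 on CTR-NCD array 5, with the other 4 at −0.07 to −0.01. Cldn2 was at −8.51 on CTR-NCD array 3, where the other 4 read −7.53 to −7.25, all below the signals called well above background. Per2 was at −0.55 on AR113Q-HFD array 3, above −0.83 to −0.77 on the other 4.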

How the results depend on the processing

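The fold threshold moved the counts of far genes most among the alternatives tried. Without a fold threshold, 2459 genes were higher and 2748 lower. With normexp background correction 339 were lower and 6774 near, beside 547 higher, and its values were −0.65 for Cldn2 and −0.35 for Scel (−0.02 and 0.28 relative to all genes). Leaving out each array in turn gave 641 to 758 higher, 510 to 748 lower and 12465 to 13270 near genes. A slide block gave 748 higher, 884 lower and 15307 near genes in the fit of 4 groups, and 664, 771 and 14739 in the fit of 10 arrays. Quantile normalization gave 913 higher, 539 lower and 14001 near genes, median centring 953, 478 and 12819, and the authors' values 793, 452 and 15208. Narrowing the near call to a 99% confidence interval left 10809 genes.

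Of 80 called genes among the named ones, 40 kept their call under all 21 alternatives. Calls were lost by 33 with normexp background correction, 12 with the authors' values, 8 with quantile normalization, 2 with the block on 10 arrays and 0 with the block in 4 groups. Whether pairs formed by slide resemble each other was read from correlations of probe values after centring each group, which were −0.04 to 0.40 on the same slide and −0.35 to 0.26 across slides. Of 5 pairs, 3 had a correlation over 0.1 and 2 AR113Q-HFD arrays were closest to the CTR-NCD array of their own slide. The cause was not tested.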

Other observations

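Chaperone, matrix and amino acid genes completed the lists. Of 17 tested heat shock genes, 12 were near (70.6%, beside 53.7% of all genes), such as the constitutive chaperone Hspa8 (−0.09) and Hspb6 (−0.29). The list median of −0.07 became 0.09 after quantile normalization and with the authors' values. It was 0.02 after median centring and 0.26 under normexp (0.89 relative to all genes). Bag3, which pairs with small heat shock proteins to clear damaged filaments, was higher at 0.67 (adjusted p = 0.00356) and read 4.36 to 4.99 on CTR-NCD arrays and 5.15 to 5.59 on AR113Q-HFD arrays. The small heat shock gene Hspb7 was unresolved at 1.03, with low values of 1.29 and 1.07 on CTR-NCD arrays 4 and 5. Another, Hspb8, was at −0.46 and was not called. Of 16 extracellular matrix genes, 8 were near, including Col6a1 (−0.07) and fibronectin (Fn1, 0.21), and the median of −0.04 became 0.01 after quantile normalization, 0.04 after median centring and 0.05 under normexp (0.68 relative to all genes). The basement membrane collagen Col15a1 was lower by 0.83, a call lost after quantile normalization. Under normexp Col15a1 was at −1.13 (−0.50 relative to all genes) without passing the test. Of 17 genes of branched-chain amino acid breakdown, 15 were near (88.2%, beside 53.7% of all genes and 84.4% of the brightest 4948). The carboxylase subunit Pcca was unresolved at −0.64 (adjusted p = 1.06e-05) with no overlap between groups.

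Further probes of the called genes mostly pointed the same way. Of 462 such probes, 387 had the same direction, 190 the same call and 75 the opposite direction, of which 5 were called in the opposite direction. Further probes were not called for Agpat2 (0.48), Bhlhe41 (−0.58), Col15a1 (−0.34) and Gbe1 (0.31). Near genes of the lists and markers had 179 further probes, of which 137 were near, 27 unresolved, 13 lower and 2 higher. Beside the genes named above, a further probe was lower for the perinatal myosin Myh8 (−1.30, near at −0.37) and for the phosphatase gene Lpin1 (−1.02, unresolved at −0.72).

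Limits of the comparison are as follows. Genotype and diet differ together, so their parts in a change cannot be told apart within these 10 arrays. Whether slides, fiber composition or fat between the fibers took part in single values was not tested beyond the values given. Near is a statement about intervals set by the fold thresholds and by 5 arrays per group, and it depends on signal. Transcript levels were read, and protein, fiber counts and nerve contact were not.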
